A study of Mus musculus with 16 samples.

Results

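Mouse embryonic stem cells carrying a hairpin against Beclin1 (shBeclin1) were compared at day 10 of a cardiomyocyte culture (CM) and at day 4 as embryoid bodies (EB), so that the comparison follows cardiac differentiation within the knockdown cells. The libraries were picked by their labels: 2 shBeclin1 CM libraries at day 10 and 2 shBeclin1 EB libraries at day 4. They are 4 of the 16 libraries of the series. The compared groups and the gene lists were chosen with earlier results of these data known. The series as a whole asked how lowering Beclin1 bears on the path from stem cell to cardiomyocyte, a question its title ties to the Wnt and BMP pathways, and measured RNA by sequencing in 8 groups of 2 libraries. All groups are the line ES-E14TG2a, a mouse embryonic stem cell line, with the genotype label WT, and all of them carry a hairpin. The shBeclin1 CM, shBeclin1 EB and shBeclin1 CM without GF (day 10) groups carry the hairpin against Beclin1, and the shNT CM (day 10) and shNT EB (day 4) groups carry the hairpin labelled shNT. The labels do not spell out GF; "with GF" is used below for shBeclin1 CM where it is set against shBeclin1 CM without GF. They do not say whether the 2 libraries of a group came from separate cultures, so each p-value measures only the spread between these libraries. Each group is a single line with a single hairpin name, the tissue label is heart although the material is a cell line, and the batch label repeats the group, so that a batch effect and a group effect cannot be told apart.

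Beclin1, the product of Becn1, is a scaffold of the lipid kinase complex that starts the formation of autophagosomes. Stem cells that form heart muscle pass through a stage like the primitive streak, at which the T-box factors T (Brachyury) and Eomes and then Mesp1 are expressed, and go on to cardiac progenitors marked by Nkx2-5, Tbx5, Gata4, Isl1 and Mef2c. A cardiomyocyte is defined by its sarcomeres, in which thick filaments of myosin pull on thin filaments of actin, tropomyosin and troponin, and by the calcium release that switches contraction on.

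The deposited table held whole-number read counts for 54052 annotation entries, of which 18471 had no read in any library. Total counts were 15574140 and 17214564 in the shBeclin1 CM libraries and 16798092 and 20340048 in the shBeclin1 EB libraries, within a range of 14967744 to 21422980 over the series. Levels are given as CPM, read counts relative to the library size after edgeR's scaling by trimmed mean of M-values. A gene was called where its adjusted p (edgeR's quasi-likelihood test, Benjamini-Hochberg over 19141 tested genes) was below 0.05. A log2 difference is followed by its standard error, and a fold against a group with 0 counts is a lower bound computed with 3 counts in that group. Where a group held 1 to 3 counts, the ratio is given with a 95% exact interval that covers counting error only.

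The knockdown was visible at both stages. Becn1 (ENSMUSG00000035086.13, chr11:101285952-101302286, minus strand, GRCm38) had 36.9 and 36.3 CPM in the shBeclin1 CM libraries, against 33.7 and 38.4 CPM in the shBeclin1 EB libraries. The shNT CM libraries had 59.7 and 58.2 CPM and the shNT EB libraries 73.0 and 72.2 CPM, so every shBeclin1 library lay below every shNT library of its stage. In these libraries the gap between the hairpins was smaller at day 10 than at day 4. By edgeR's test this difference was called in the main fit but not with total counts as the scaling (log2 difference 0.28, adjusted p = 0.052). With no low-count filter it was not called either (0.30, adjusted p = 0.0634). Without shBeclin1 EB replicate 1 the log2 difference was 0.23. Within the knockdown, Becn1 did not pass the test between day 10 and day 4 (log2 difference 0.02 ± 0.08, adjusted p = 0.859). Annotation places 43.9% of its exon bases within exons of another gene, and whether reads were counted by strand is unknown here.

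Between day 4 and day 10 most of the measured transcriptome of the knockdown cells differed. Of 19141 genes, 13851 (72.4%) were called, 7141 (37.3%) higher in shBeclin1 CM and 6710 (35.1%) lower, with a median log2 difference over all tested genes of 0.02. A change of at least 2-fold was reached by 4737 genes that were higher (24.7%) and 3485 that were lower (18.2%). Against so broad a background, the counts of called members below are read beside these shares and beside the size of the change. Since all groups were filtered together, a listed gene near 0 in every other group could pass only through the group in which it was high.

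The sarcomere genes rose together. All 17 genes of the thick filament and M-band list rose, with a median log2 difference of 6.78, and their summed level was 4119 to 4399 CPM in shBeclin1 CM, against 19.6 to 20.6 CPM in shBeclin1 EB. In bulk RNA, more cells of a type and more RNA per cell cannot be told apart. Myh6 (ENSMUSG00000040752.16, chr14:54941921-54966927, minus strand, GRCm38), the alpha myosin heavy chain of the fast cardiac isoform, had 877.3 and 742.3 CPM in the shBeclin1 CM libraries, against 2.92 and 4.29 CPM in the shBeclin1 EB libraries. Both day 10 libraries lay far above both day 4 libraries (221-fold, log2 difference 7.79 ± 0.51, adjusted p = 5.88e-07). Myh7, the beta heavy chain that prevails in the fetal ventricle, had 994.2 and 879.6 CPM in shBeclin1 CM, against 0.531 and 0.167 CPM in shBeclin1 EB (log2 difference 11.42 ± 0.58, adjusted p = 8.01e-08). Annotation shares 13.3% of the Myh7 exon bases with another gene.

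The myosin light chains rose with the heavy chains. Myl7, the atrial regulatory light chain, which early heart muscle expresses throughout, had 582.4 and 624.6 CPM in the shBeclin1 CM libraries, against 6.18 and 5.57 CPM in the shBeclin1 EB libraries (log2 difference 6.69 ± 0.25, adjusted p = 4.86e-09). Myl2, its ventricular counterpart, had 48.7 and 46.8 CPM in shBeclin1 CM, against 0.731 and 0.946 CPM in shBeclin1 EB (log2 difference 5.80 ± 0.22). Both isoforms were thus present at day 10 with no overlap with day 4. Per kilobase of merged exon, Myl7 averaged 1023 ± 50.5 CPM in shBeclin1 CM (SD, n = 2), while Myh6 averaged 120.4 ± 14.2 CPM on the same scale. Myl4, an essential light chain of the embryonic heart, stood at 383.9 and 416.9 CPM in shBeclin1 CM, against 0.598 and 0.278 CPM in shBeclin1 EB (log2 difference 9.86 ± 0.46). Myl3, the ventricular essential light chain, stood at 90.6 and 84.4 CPM in shBeclin1 CM, against 0.266 and 0.278 CPM in shBeclin1 EB. All 4 light chains named here rose.

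Proteins that order the thick filament followed the same direction. Ttn, the giant spring protein titin, had 452.9 and 387.5 CPM in the shBeclin1 CM libraries, against 1.46 and 1.73 CPM in the shBeclin1 EB libraries (260.7-fold, log2 difference 8.03 ± 0.49, adjusted p = 3.19e-07). Mybpc3, the cardiac myosin-binding protein C, had 229.7 and 217.3 CPM in shBeclin1 CM, against 0 and 0.111 CPM in shBeclin1 EB, a ratio of 3686 (95% counting interval 1020 to 30443). Smyd1, a muscle methyltransferase needed for heart formation, had 284.2 and 278.5 CPM in shBeclin1 CM, against 0.266 and 0.390 CPM in shBeclin1 EB (log2 difference 9.69 ± 0.20). For Mybpc3 and Smyd1 the day 4 level was close to none. Mylk3, the kinase of the cardiac light chain, had 101.4 and 100.6 CPM in shBeclin1 CM, against 0.0664 and 0.0557 CPM in shBeclin1 EB (ratio 1668, 95% counting interval 461.4 to 13780). Myom1, which crosslinks myosin at the M-band, had 231.0 and 217.9 CPM in shBeclin1 CM, against 2.26 and 1.84 CPM in shBeclin1 EB (log2 difference 6.78 ± 0.38).

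**Figure D1:**
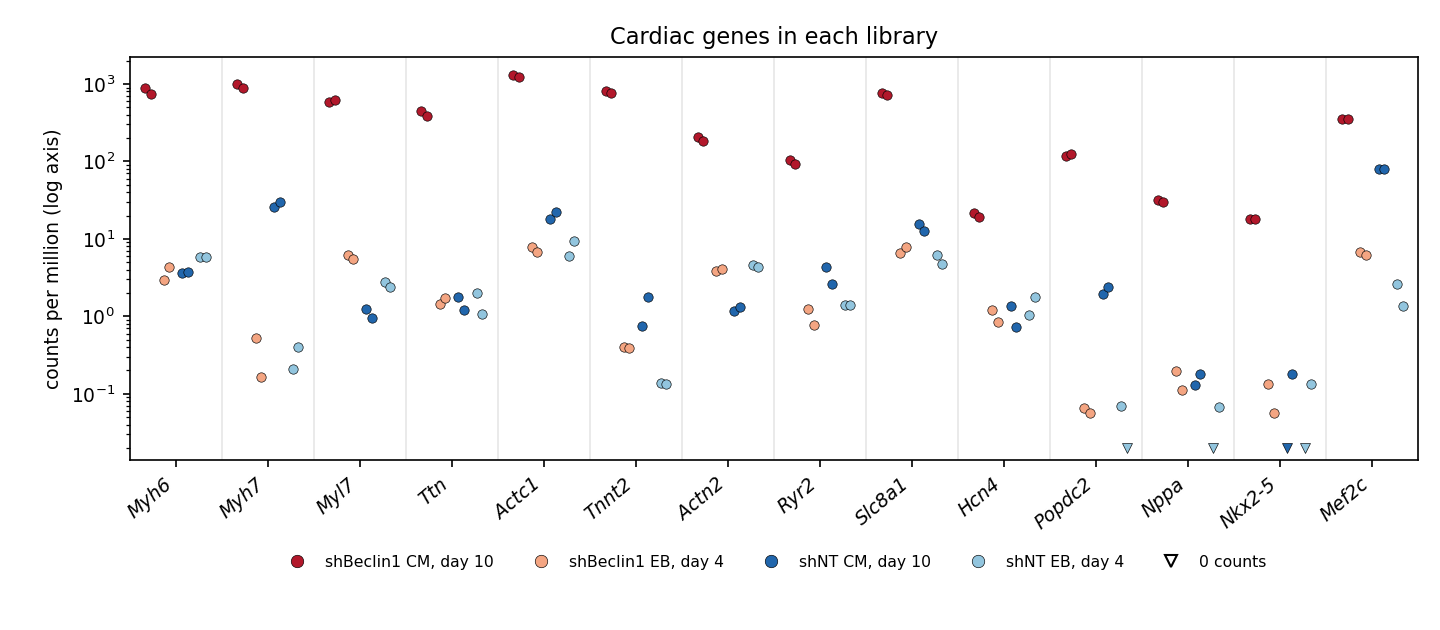
Levels in CPM (log axis) of 14 cardiac genes in single libraries of shBeclin1 CM, shBeclin1 EB, shNT CM and shNT EB; a triangle marks a library with 0 counts, drawn at the bottom. For Myh6 the 2 shBeclin1 CM libraries lie at 742.3 and 877.3 CPM, against 2.92 and 4.29 CPM in shBeclin1 EB.

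Of the 24 genes listed for the thin filament and Z-disc, 22 passed the low-count filter, and 21 of these rose while 1 was not called (Xirp2). Their median log2 difference was 7.06, or 6.88 with the genes at 0 counts set to their bound, and the list summed to 5643 to 5812 CPM in shBeclin1 CM, against 408.9 to 413.4 CPM in shBeclin1 EB. Actc1 (chr2:114047282-114053548, minus strand, GRCm38), the cardiac alpha actin, had 1293 and 1237 CPM in the shBeclin1 CM libraries, against 7.97 and 6.68 CPM in the shBeclin1 EB libraries (log2 difference 7.44 ± 0.40, adjusted p = 2.3e-06). Tnnt2 (chr1:135836354-135852260, plus strand, GRCm38), the cardiac troponin T that anchors the troponin complex to tropomyosin, had 822.6 and 756.8 CPM in shBeclin1 CM, against 0.399 and 0.390 CPM in shBeclin1 EB (log2 difference 10.94 ± 0.48, adjusted p = 2.47e-08). Both genes separated day 10 from day 4 with no overlap.

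The troponin I isoforms differed in size of change. Tnni1, the slow skeletal isoform that the embryonic heart uses first, had 247.2 and 243.1 CPM in shBeclin1 CM, against 0.399 and 0.390 CPM in shBeclin1 EB (611.2-fold). Tnni3, the adult cardiac isoform, had 14.3 and 12 CPM in shBeclin1 CM, against 3.06 and 3.67 CPM in shBeclin1 EB (3.87-fold, log2 difference 1.95 ± 0.27, adjusted p = 6.8e-06). Tnni1 was therefore the gene with the larger fold, while both rose. Tpm1, the alpha tropomyosin that many cell types also make, had 1255 and 1295 CPM in shBeclin1 CM, against an already high 268.0 and 268.5 CPM in shBeclin1 EB (4.75-fold, adjusted p = 1.27e-26).

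Z-disc and associated genes completed the rise. Actn2, the cardiac alpha-actinin that crosslinks actin at the Z-disc, had 207.0 and 184.9 CPM in shBeclin1 CM, against 3.85 and 4.12 CPM in shBeclin1 EB (log2 difference 5.61 ± 0.34). Ldb3, a Z-disc PDZ protein, had 176.6 and 157.4 CPM in shBeclin1 CM, against 1.66 and 1.28 CPM in shBeclin1 EB (log2 difference 6.84 ± 0.39). Des, the muscle intermediate filament desmin, had 285.5 and 288.1 CPM in shBeclin1 CM, against 3.79 and 4.62 CPM in shBeclin1 EB (log2 difference 6.08 ± 0.11, adjusted p = 2.32e-30). In each of these genes the day 10 pair was close together and far above the day 4 pair. Nexn, an actin-binding protein of the Z-disc, had 395.0 and 369.4 CPM in shBeclin1 CM, against 1.93 and 1.56 CPM in shBeclin1 EB. Csrp3, the muscle LIM protein, had 30.2 and 30.8 CPM in shBeclin1 CM and 0 counts in both shBeclin1 EB libraries, at least 336.1-fold higher; its adjusted p was 0.0769 by DESeq2, so the call rests on the edgeR test.

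The 5 promoters below are shown because these sarcomere genes all rose and because each window of 250 bases before the RefSeq start site held 1 CArG box, the binding sequence of serum response factor, written in capitals. They were read from RefSeq on GRCm38.p6 and run 5′ to 3′ on the strand of the gene.
Actc1: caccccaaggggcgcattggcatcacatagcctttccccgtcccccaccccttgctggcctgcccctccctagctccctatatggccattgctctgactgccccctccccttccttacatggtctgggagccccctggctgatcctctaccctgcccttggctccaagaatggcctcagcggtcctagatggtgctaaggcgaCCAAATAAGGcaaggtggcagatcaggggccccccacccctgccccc
Myl7: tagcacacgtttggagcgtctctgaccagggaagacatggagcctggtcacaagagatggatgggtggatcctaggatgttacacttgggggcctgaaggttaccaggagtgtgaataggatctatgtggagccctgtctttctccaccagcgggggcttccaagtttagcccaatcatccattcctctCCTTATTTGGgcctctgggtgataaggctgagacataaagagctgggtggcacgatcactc
Myl3: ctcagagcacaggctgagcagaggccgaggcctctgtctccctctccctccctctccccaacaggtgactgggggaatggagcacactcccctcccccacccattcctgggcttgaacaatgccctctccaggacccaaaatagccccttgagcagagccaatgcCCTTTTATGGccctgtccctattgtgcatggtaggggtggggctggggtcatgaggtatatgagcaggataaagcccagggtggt
Ldb3: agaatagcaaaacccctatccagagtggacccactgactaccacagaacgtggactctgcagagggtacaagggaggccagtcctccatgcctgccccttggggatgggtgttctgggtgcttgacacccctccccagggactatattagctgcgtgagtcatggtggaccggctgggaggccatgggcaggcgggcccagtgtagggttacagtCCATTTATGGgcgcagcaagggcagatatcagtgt
Myom1: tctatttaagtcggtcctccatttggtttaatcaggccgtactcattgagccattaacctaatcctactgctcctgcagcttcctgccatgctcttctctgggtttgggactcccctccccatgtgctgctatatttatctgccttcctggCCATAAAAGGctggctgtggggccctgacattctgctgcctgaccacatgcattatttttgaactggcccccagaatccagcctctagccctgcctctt
The Actc1 window is chr2:114052876-114053125 (minus strand), and its box ends 37 bases before the start site. Those of Myl7 (chr11:5898783-5899032, minus), Myl3 (chr9:110763428-110763677, plus), Ldb3 (chr14:34588682-34588931, minus) and Myom1 (chr17:71019307-71019556, plus) end 51, 75, 25 and 89 bases before it.

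Of 41 genes listed for both filaments, 34 had a promoter window, and 8 of these (23.5%) held a CArG box on either strand, namely Acta1, Actc1, Fhl2, Ldb3, Myl3, Myl7, Myom1 and Nebl. Over all 27025 genes with a window the share was 1.62%. Of genes with a window, 0 of 12 in the calcium list, which mostly rose, held the box. So did 2 of 20 in the primitive streak list described below, which fell (Mesp1 and Mesp2). In 2 further lists described below that rose or mostly rose, it was found in 1 of 10 smooth muscle genes (Cnn2) and 0 of 14 endothelial genes. A MEF2 site was found in 5 of the 34 (14.7%), against 0.592% of all genes, and the letters CATTCC, the core of the muscle element read by TEAD factors, in 11 (32.4%), against 14.4%. The letters AGATAA, read by factors of the Gata family, were found in 9 (26.5%), against 11.4%. In the calcium list the MEF2 site, CATTCC and AGATAA were found in 0, 0 and 3 of 12 genes. In the streak list they were found in 0, 2 and 2 of 20. These motifs were searched on both strands, may overlap each other, and a gene counted where any of its windows held one. A match says only that the letters are in the window; no binding was measured.

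Genes of calcium handling rose as well, though not all of them. Of 18 listed, 17 were tested, 14 rose, none fell and 3 were not called, with a median log2 difference of 4.11. Ryr2, the release channel of the sarcoplasmic reticulum, had 104.0 and 91.9 CPM in the shBeclin1 CM libraries, against 1.26 and 0.779 CPM in the shBeclin1 EB libraries (log2 difference 6.60 ± 0.54, adjusted p = 3e-06). Slc8a1, the sodium-calcium exchanger, had 754.6 and 723.8 CPM in shBeclin1 CM, against 6.58 and 7.90 CPM in shBeclin1 EB (101.4-fold, log2 difference 6.66 ± 0.38). Jph2, which holds the reticulum against the cell membrane, had 135.2 and 122.8 CPM in shBeclin1 CM, against 0.531 and 0.835 CPM in shBeclin1 EB (log2 difference 7.52 ± 0.16, adjusted p = 1.96e-31). The channel, the exchanger and the junction protein thus all separated the stages without overlap.

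The calcium pump of the reticulum did not follow. Atp2a2 had 481.9 and 435.2 CPM in shBeclin1 CM, against 464.2 and 476.4 CPM in shBeclin1 EB, with overlapping ranges (log2 difference -0.04, adjusted p = 0.858). Its inhibitor Pln was low, at 5.09 and 2.46 CPM in shBeclin1 CM, against 0.199 and 0 CPM in shBeclin1 EB (ratio 40.8, 95% counting interval 13.6 to 200.7), and 64.7% of its exon bases are shared with another gene. Casq2, the calcium buffer of the reticulum, had 0.708 and 0.293 CPM in shBeclin1 CM, against 0.465 and 0.835 CPM in shBeclin1 EB (adjusted p = 0.514). Sln, which regulates the pump in atria, had 0 counts in all 4 knockdown libraries.

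Ion channel and junction genes divided. Of 22 listed, 21 were tested, 13 rose, 5 fell and 3 were not called, with a median log2 difference of 2.34. Hcn4, the pacemaker channel, had 21.6 and 19.1 CPM in shBeclin1 CM, against 1.2 and 0.835 CPM in shBeclin1 EB (log2 difference 4.33 ± 0.53, adjusted p = 5.18e-05). Popdc2, a membrane protein of pacemaking tissue in mice, had 117.2 and 122.9 CPM in shBeclin1 CM, against 0.0664 and 0.0557 CPM in shBeclin1 EB (ratio 1985, 95% counting interval 549.1 to 16397). Both were higher in each day 10 library than in any day 4 library. Gja1, the gap junction protein connexin 43, fell to 136.6 and 135.2 CPM in shBeclin1 CM, against 380.9 and 389.2 CPM in shBeclin1 EB (log2 difference -1.50 ± 0.06). Kcnj3, an atrial potassium channel whose exons are shared over 31.1% of their bases, fell to 0.193 and 0.293 CPM in shBeclin1 CM, against 23.5 and 27.4 CPM in shBeclin1 EB.

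Chamber and secreted genes gave 18 rises, 2 falls and 3 genes not called among 23 tested of 25 listed, with a median log2 difference of 4.43, or 2.30 with genes at 0 counts set to their bound. Nppa, the atrial natriuretic peptide, had 31.5 and 30.1 CPM in the shBeclin1 CM libraries, against 0.199 and 0.111 CPM in the shBeclin1 EB libraries (log2 difference 7.60 ± 0.32, adjusted p = 4.12e-22); 61.5% of its exon bases are shared with another gene. Nppb, the related B-type peptide, had 13 and 13.3 CPM in shBeclin1 CM, against 0 and 0.0557 CPM in shBeclin1 EB (ratio 435.3, 95% counting interval 77.7 to 17232). Both peptides were close to none at day 4. Hey2, a repressor of atrial genes in the ventricle, had 35.0 and 39.1 CPM in shBeclin1 CM, against 0.864 and 0.890 CPM in shBeclin1 EB, and Tbx2, a repressor in non-chamber muscle, rose too (log2 difference 7.83 ± 0.34). Irx5 and Tbx3 were the 2 that fell, by 1.86 and 1.54 on the log2 scale.

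Transcription factors and receptors of the cardiac progenitors mostly rose: 22 of 26 were higher and 4 lower, with a median log2 difference of 3.61. Nkx2-5, the homeobox factor of early heart muscle, had 17.8 and 17.9 CPM in the shBeclin1 CM libraries, against 0.133 and 0.0557 CPM in the shBeclin1 EB libraries (ratio 196.4, 95% counting interval 66.9 to 955.0; adjusted p = 2.45e-18). Mef2c, a MADS-box activator of muscle genes, had 353.4 and 352.7 CPM in shBeclin1 CM, against 6.84 and 6.18 CPM in shBeclin1 EB (log2 difference 5.76 ± 0.11, adjusted p = 1.38e-25). Tbx20, a T-box factor of heart muscle, had 173.2 and 171.6 CPM in shBeclin1 CM, against 5.51 and 6.12 CPM in shBeclin1 EB (log2 difference 4.88 ± 0.27). All 3 were higher in both day 10 libraries, each pair lying close together.

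The GATA factors did not move by like amounts. Gata4, a zinc finger factor of heart and endoderm, had 112.1 and 109.7 CPM in shBeclin1 CM, against an already high 85.0 and 78.9 CPM in shBeclin1 EB (1.35-fold, log2 difference 0.44 ± 0.08, adjusted p = 5.3e-06). Gata6 rose by 1.56 on the log2 scale, and Gata5 had 66.8 and 60.2 CPM in shBeclin1 CM, against 0 and 0.0557 CPM in shBeclin1 EB (ratio 2090, 95% counting interval 374.7 to 82601). All 3 were higher at day 10, by very unequal folds. Isl1, a marker of second heart field progenitors, rose as well, with 74.9 and 74.7 CPM in shBeclin1 CM, against 3.79 and 4.29 CPM in shBeclin1 EB (log2 difference 4.2 ± 0.11). Tbx5, a factor of the first heart field and atria, reached only 3.22 and 2.93 CPM in shBeclin1 CM, against 0.0664 and 0 CPM in shBeclin1 EB. Hand2, needed for the right ventricle in mice, had 199.6 and 195.4 CPM in shBeclin1 CM, against 2.32 and 1.89 CPM in shBeclin1 EB, with 19.6% of its exon bases shared with another gene. The 4 that fell were Six2 (log2 difference -6.14 ± 0.41), Foxf1 (-3.32 ± 0.32), Fgf10 (-0.87) and Pdgfra (-0.33).

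While muscle genes rose, the primitive streak programme of day 4 was lost. All 24 genes of the streak and early mesoderm list fell, with a median log2 difference of -6.35, or -6.21 with genes at 0 counts set to their bound, and the list summed to 87.0 to 92.2 CPM in shBeclin1 CM, against 3367 to 3405 CPM in shBeclin1 EB. T (ENSMUSG00000062327.10, chr17:8434423-8442496, plus strand, GRCm38), the T-box factor of nascent mesoderm, fell to 0.451 and 0.410 CPM in the shBeclin1 CM libraries, against 556.7 and 558.0 CPM in the shBeclin1 EB libraries (log2 difference -10.32 ± 0.14, adjusted p = 2.95e-37). Eomes, which acts upstream of Mesp1, fell to 0.451 and 0.234 CPM in shBeclin1 CM, against 787.4 and 809.9 CPM in shBeclin1 EB (log2 difference -11.18 ± 0.13). Mixl1, a homeobox factor of the streak, had 0 and 0.117 CPM in shBeclin1 CM, against 263.2 and 254.2 CPM in shBeclin1 EB, 4213-fold lower (95% counting interval 1166 to 34797). All 3 were reduced to traces in both day 10 libraries.

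Mesp1, the early marker of cardiac mesoderm, had 0.322 and 0.0585 CPM in shBeclin1 CM, against 98.3 and 88.0 CPM in shBeclin1 EB (log2 difference -8.93 ± 0.24). Cer1, a secreted antagonist of Nodal, BMP and Wnt, had 0 counts in shBeclin1 CM, against 11.4 and 12 CPM in shBeclin1 EB, at least 127.4-fold lower. Evx1, a homeobox factor of the posterior streak, kept 4.18 and 3.39 CPM in shBeclin1 CM, against 115.8 and 114.5 CPM in shBeclin1 EB. A small fall was that of Rspo3, a secreted amplifier of Wnt signalling, with 40.2 and 38.5 CPM in shBeclin1 CM, against 48.5 and 55.8 CPM in shBeclin1 EB (log2 difference -0.41 ± 0.11, adjusted p = 0.000809). Without shBeclin1 EB replicate 2 its adjusted p was 0.0504.

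Pluripotency genes fell less far. Of 22 listed, 21 fell and 1 rose, with a median log2 difference of -2.05 and a sum of 367.2 to 368.0 CPM in shBeclin1 CM, against 3017 to 3048 CPM in shBeclin1 EB. Pou5f1, which encodes Oct4, had 12.4 and 12.5 CPM in shBeclin1 CM, against 841.9 and 819.6 CPM in shBeclin1 EB (log2 difference -6.06 ± 0.09, adjusted p = 2.01e-36), with 14.1% of its exon bases shared. Nanog had 11.7 and 10.7 CPM in shBeclin1 CM, against 186.6 and 190.8 CPM in shBeclin1 EB (log2 difference -4.07). Both core factors remained detectable at day 10, well below day 4. Tdgf1, a co-receptor of Nodal, still had 98.9 and 104.8 CPM in shBeclin1 CM, against 665.2 and 690.5 CPM in shBeclin1 EB. The gene that rose was Klf2, with 14.1 and 17.4 CPM in shBeclin1 CM, against 8.64 and 9.13 CPM in shBeclin1 EB (log2 difference 0.83, adjusted p = 0.00538).

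Of the 14 genes of the formative and primed epiblast, 12 fell, 1 rose and 1 was not called, with a median log2 difference of -4.43. Dnmt3b, a de novo DNA methyltransferase of the epiblast, had 17.8 and 19.1 CPM in shBeclin1 CM, against 1166 and 1160 CPM in shBeclin1 EB (log2 difference -5.98 ± 0.08, adjusted p = 1.01e-37). Dnmt3a, its close relative, rose to 277.6 and 279.0 CPM in shBeclin1 CM, against 194.4 and 200.6 CPM in shBeclin1 EB. Fgf5, the growth factor that marks the epiblast, had 0.129 and 0 CPM in shBeclin1 CM, against 148.1 and 151.4 CPM in shBeclin1 EB (2445-fold lower, 95% counting interval 676.5 to 20195). The 2 methyltransferases thus moved in opposite directions, and neither pair of libraries overlapped.

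**Figure D2:**
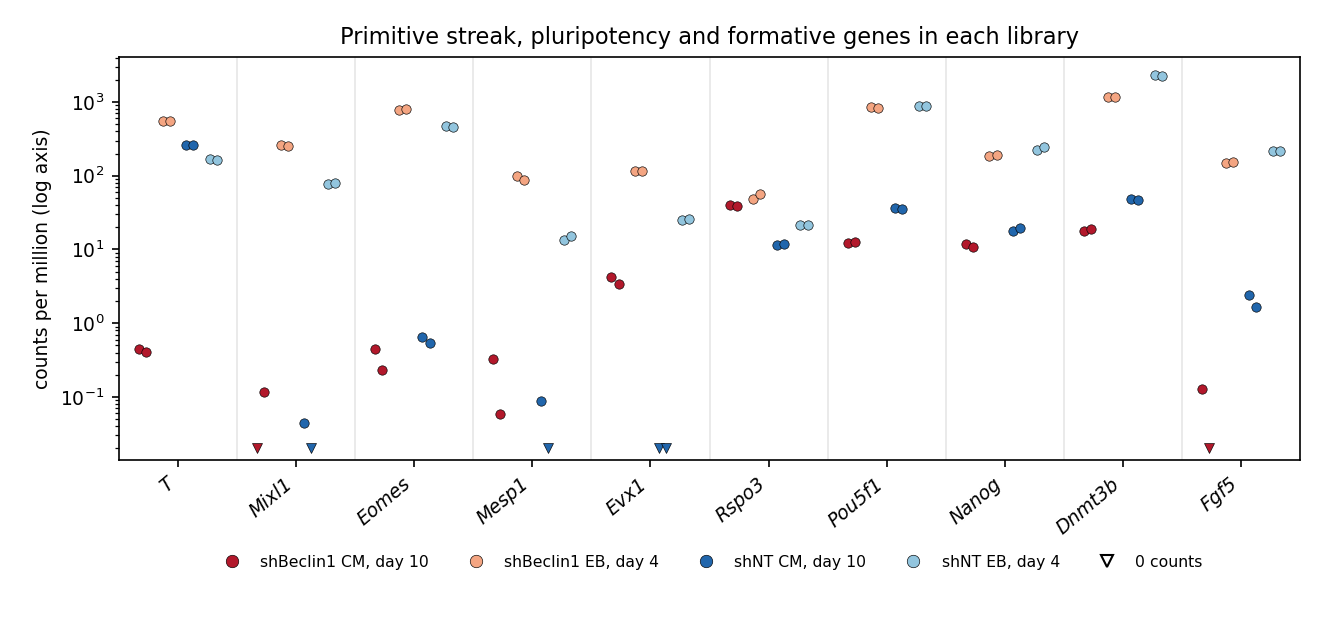
Levels in CPM (log axis) of 10 streak and epiblast genes in single libraries of shBeclin1 CM, shBeclin1 EB, shNT CM and shNT EB; a triangle marks a library with 0 counts. T stood at 0.410 and 0.451 CPM in the shBeclin1 CM libraries but at 258.4 and 260.4 CPM in the shNT CM libraries.

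The 12 rises picked by fitted log2 difference were all of genes at 0 counts in both day 4 libraries, so their folds are known only as lower bounds and give no rank. Trim55, a muscle ubiquitin ligase of the M-band, had 111.5 and 107.5 CPM in shBeclin1 CM (at least 1204-fold). The others included Emcn, an endothelial sialoprotein (at least 754.5-fold), Xirp1, an actin-binding protein of the intercalated disc (54.7 and 51.2 CPM in shBeclin1 CM), and Hspb7, a cardiac small heat shock protein (at least 572.3-fold). Alpk2, Dnm3os, Asb2, Hoxd9, Cavin2, Plppr5, Csrp3 and Ctnna3 made up the rest of the 12, with bounds from 506.5 down to 305.7. Exons of Alpk2 are shared over 18.1% of their bases. The 12 largest falls were Mixl1, Lhx1, Eomes, Fgf5, Cer1, T, Mesp1, Vrtn, Alox15, Wnt8a, Ina and Cdh4. Lhx1, a LIM homeobox factor of the streak and its derivatives, fell to 0.129 and 0.176 CPM in shBeclin1 CM, against 396.6 and 401.9 CPM in shBeclin1 EB.

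Day 10 cultures also expressed genes of other mesodermal cell types. All 15 smooth muscle genes rose, with a median log2 difference of 4.31 and a sum of 3416 to 3497 CPM in shBeclin1 CM, against 203.5 to 223.5 CPM in shBeclin1 EB. Acta2, smooth muscle actin, which early heart muscle also makes, had 1810 and 1892 CPM in shBeclin1 CM, against 8.04 and 7.96 CPM in shBeclin1 EB (231.3-fold, log2 difference 7.85 ± 0.14, adjusted p = 3.6e-18). Myocd, a co-activator of serum response factor in smooth and heart muscle, had 63.5 and 54.7 CPM in shBeclin1 CM, against 0.133 and 0.223 CPM in shBeclin1 EB (log2 difference 8.29 ± 0.27). The stages did not overlap for either gene. Myh11, the smooth muscle myosin that defines mature cells of that type, reached 11.7 and 14.3 CPM in shBeclin1 CM, against 0.332 and 0.223 CPM in shBeclin1 EB.

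Fibroblast and matrix genes summed to 7981 to 8320 CPM in shBeclin1 CM, against 2846 to 2938 CPM in shBeclin1 EB, with 22 of 25 higher and 3 lower and a median log2 difference of 4.66, or 4.34 with genes at 0 counts set to their bound. Col1a1, a chain of type I collagen, had 922.9 and 1049 CPM in shBeclin1 CM, against 1.73 and 1.22 CPM in shBeclin1 EB (log2 difference 9.40 ± 0.12, adjusted p = 1.14e-37). Col3a1, the chain of type III collagen, had 870.9 and 910.5 CPM in shBeclin1 CM, against 0.266 and 0.445 CPM in shBeclin1 EB. Fn1, fibronectin, fell to 1856 and 1903 CPM in shBeclin1 CM, against 2514 and 2425 CPM in shBeclin1 EB (log2 difference -0.39 ± 0.06, adjusted p = 1.04e-06). Collagens and fibronectin therefore moved in opposite directions.

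Endothelial and endocardial genes rose in 22 of 24 cases, with 1 fall and 1 gene not called (Tal1), and a median log2 difference of 3.63. Cdh5, the cadherin of endothelial junctions, had 251.4 and 265.2 CPM in shBeclin1 CM, against 1.13 and 1.11 CPM in shBeclin1 EB (log2 difference 7.84 ± 0.14, adjusted p = 9.54e-29). Pecam1, the adhesion protein CD31, had 210.9 and 223.2 CPM in shBeclin1 CM, against 5.45 and 5.40 CPM in shBeclin1 EB. Etv2, the transient initiator of the blood and endothelial lineage, was the one that fell, with 2.57 and 1.87 CPM in shBeclin1 CM, against 31.6 and 28.2 CPM in shBeclin1 EB (log2 difference -3.75 ± 0.20). Of 24 blood and macrophage genes, 18 were tested, 15 rose and 1 fell, beside 37.3% higher and 35.1% lower of all genes. Of the 24, 8 had 0 counts in shBeclin1 EB and could not have been found lower at day 10. The embryonic globin Hbb-bh1 had 103.1 and 124.9 CPM in shBeclin1 CM, against 0.0664 and 0.0557 CPM in shBeclin1 EB (ratio 1890, 95% counting interval 522.9 to 15615).

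Epicardial and mesothelial genes rose in 13 of 14 cases (Lrrn4 was not called), with a median log2 difference of 4.10, or 3.58 with genes at 0 counts set to their bound. The defining factors were low: Wt1 had 7.92 and 7.20 CPM in shBeclin1 CM, against 0.133 and 0.445 CPM in shBeclin1 EB, and Tbx18 had 1.87 and 2.46 CPM in shBeclin1 CM, against 0.133 and 0.167 CPM in shBeclin1 EB. Skeletal muscle genes gave little signal. Their 18 members summed to 11.8 CPM in each shBeclin1 CM library, against 10.4 to 11.7 CPM in shBeclin1 EB, 8 had 0 counts in shBeclin1 CM, and among the 7 tested 3 rose and 3 fell. The skeletal determination factor Myod1 and the fast myosins Myh1, Myh2, Myh4 and Myh8 had 0 counts in shBeclin1 CM. The part that these other cell types' RNA plays in the sarcomere result was not tested.

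Genes of the HOX clusters, which encode position along the body axis, rose at both ends of the clusters. Of 15 anterior genes 14 rose and 1 fell, with a median log2 difference of 6.03, or 3.93 with genes at 0 counts set to their bound. Of 24 posterior genes 21 were tested and 19 rose with none lower, with a median of 7.06, or 4.77 on the same bound. Of the 24, 15 had 0 counts in shBeclin1 EB and could not have been found lower at day 10. Genes near 0 elsewhere passed the filter only through a group in which they were high. The lack of lower posterior genes is therefore not a result. Hoxd9 had 33.4 and 31.3 CPM in shBeclin1 CM and 0 counts in shBeclin1 EB, at least 355.6-fold higher. Hoxd8 had 40.6 and 38.3 CPM in shBeclin1 CM, against 0 and 0.167 CPM in shBeclin1 EB (ratio 433.6, 95% counting interval 148.0 to 2105). Both were detected in each day 10 library. Hoxb1, an early gene of the posterior streak, fell to 0.0644 and 0.176 CPM in shBeclin1 CM, against 5.58 and 7.79 CPM in shBeclin1 EB (log2 difference -5.69 ± 0.46).

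Wnt target genes mostly fell between the stages: of 22 listed, 20 were tested, 16 fell, 2 rose and 2 were not called, with a median log2 difference of -1.79. Axin2, a negative feedback target of the canonical pathway, fell to 10.5 and 9.36 CPM in the shBeclin1 CM libraries, against 96.7 and 95.7 CPM in the shBeclin1 EB libraries (log2 difference -3.28 ± 0.12, adjusted p = 4.21e-23). Sp5, a zinc finger target of the same pathway, fell to 3.60 and 3.04 CPM in shBeclin1 CM, against 159.2 and 137.3 CPM in shBeclin1 EB. The transcription factors of the pathway fell too, Lef1 (13.7% of its exon bases shared) to 38.1 and 35.0 CPM in shBeclin1 CM, against 151.2 and 156.9 CPM in shBeclin1 EB, and Tcf7 to 34.1 and 29.1 CPM in shBeclin1 CM, against 153.4 and 149.6 CPM in shBeclin1 EB. Day 10 lay below day 4 in every library for these 4 genes. The 2 that rose were Cdx2, a caudal homeobox factor (log2 difference 1.75 ± 0.22), and Dkk1, a secreted antagonist (38.7 and 42.4 CPM in shBeclin1 CM, against 18.1 and 19.1 CPM in shBeclin1 EB). Among 11 tested secreted antagonists 4 rose and 5 fell, or 3 fell without shBeclin1 CM replicate 2.

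BMP target genes went the other way, with 18 of 21 higher, 1 lower and 2 not called, and a median log2 difference of 1.47. Bambi, a decoy receptor induced by the pathway, had 149.9 and 159.0 CPM in shBeclin1 CM, against 18.2 and 18.6 CPM in shBeclin1 EB (8.39-fold, log2 difference 3.07 ± 0.09, adjusted p = 1.56e-27). The inhibitory Smad6 had 60.2 and 58.4 CPM in shBeclin1 CM, against 7.97 and 6.40 CPM in shBeclin1 EB (log2 difference 3.05 ± 0.12). Id2, an inhibitor of helix-loop-helix factors, had 178.6 and 171.7 CPM in shBeclin1 CM, against 18.5 and 15.4 CPM in shBeclin1 EB, whereas the rise of Id1 was smaller, at 0.49 ± 0.09 on the log2 scale. Every one of these 4 genes was higher in both day 10 libraries than in either day 4 library. Among 16 tested ligands and receptors 11 rose and 4 fell, a count of falls that became 2 when libraries were scaled by total counts. The ligand Bmp4 had 119.8 and 114.9 CPM in shBeclin1 CM, against 5.45 and 6.90 CPM in shBeclin1 EB (log2 difference 4.23 ± 0.12, adjusted p = 3.92e-27). Its receptor Bmpr1a had 458.9 and 468.6 CPM in shBeclin1 CM, against 179.3 and 191.7 CPM in shBeclin1 EB.

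Cell cycle genes mostly fell, but 2 markers of dividing cells did not pass the test. Of 31 cell cycle genes 25 fell, 6 were not called and 0 rose, with a median log2 difference of -1. Scaled by total counts, which put the median of all genes at 0.177, the counts were 25 lower and 6 higher. Rrm2, a subunit of ribonucleotide reductase, fell to 115.1 and 111.2 CPM in shBeclin1 CM, against 456.7 and 451.8 CPM in shBeclin1 EB (log2 difference -2.01 ± 0.07). Mcm2, part of the replicative helicase, fell to 160.1 and 157.1 CPM in shBeclin1 CM, against 519.2 and 508.6 CPM in shBeclin1 EB (log2 difference -1.70 ± 0.07). Both replication genes were lower in each day 10 library. Mki67, a marker of dividing cells, had 605.5 and 585.0 CPM in shBeclin1 CM, against 566.1 and 592.5 CPM in shBeclin1 EB, with overlapping ranges (adjusted p = 0.618). Top2a, the topoisomerase of dividing cells, was likewise not called (adjusted p = 0.533), and under total-count scaling both were called higher, by 0.20 and 0.21 on the log2 scale. Of 12 cell cycle inhibitors 11 rose, among them Cdkn1c, with 310.0 and 318.6 CPM in shBeclin1 CM, against 37.3 and 35.4 CPM in shBeclin1 EB (30.7% of its exon bases are shared with another gene).

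Metabolic lists moved apart by modest amounts. Fatty acid oxidation genes rose in 21 of 27 tested cases with 1 fall (median log2 difference 0.98), and Cpt1a, which admits fatty acids to mitochondria, had 46.5 and 48.8 CPM in shBeclin1 CM, against 7.31 and 6.62 CPM in shBeclin1 EB. Glycolysis and hypoxia genes rose in 21 of 28 cases and fell in 6 (median 1.11), with the growth factor Vegfa at 254.8 and 235.4 CPM in shBeclin1 CM, against 19.7 and 22.9 CPM in shBeclin1 EB. Genes of the respiratory chain fell in 24 of 34 cases with 10 not called (median -0.31), a count that became 17 lower and 4 higher under total-count scaling. Cycs, the somatic cytochrome c, fell to 63.7 and 64.8 CPM in shBeclin1 CM, against 247.6 and 258.9 CPM in shBeclin1 EB (log2 difference -1.98 ± 0.08).

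Autophagy and lysosome genes are of interest because the hairpin targets an autophagy gene. Of 42 core autophagy genes 21 rose, 11 fell and 10 were not called, with a median log2 difference of 0.20, beside 37.3% higher and 35.1% lower of all genes. Wipi1, which binds the lipid made by the Beclin1 complex, had 118.1 and 110.2 CPM in shBeclin1 CM, against 12.8 and 13.4 CPM in shBeclin1 EB (log2 difference 3.13 ± 0.09, adjusted p = 3.73e-27). Gabarapl1, a ubiquitin-like protein of the autophagosome membrane, had 210.3 and 226.2 CPM in shBeclin1 CM, against 57.7 and 62.3 CPM in shBeclin1 EB. Tax1bp1, a cargo receptor, fell to 261.8 and 259.8 CPM in shBeclin1 CM, against 341.4 and 370.1 CPM in shBeclin1 EB (log2 difference -0.45 ± 0.06). Each of the 3 separated the stages, in both directions. Of 34 tested lysosome genes 28 rose, 1 fell and 5 were not called (median 1.01), with Lamp2, a membrane glycoprotein, at 452.1 and 482.7 CPM in shBeclin1 CM, against 83.9 and 90.9 CPM in shBeclin1 EB, while its relative Lamp1 was the one that fell (log2 difference -0.48).

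**Figure D3:**
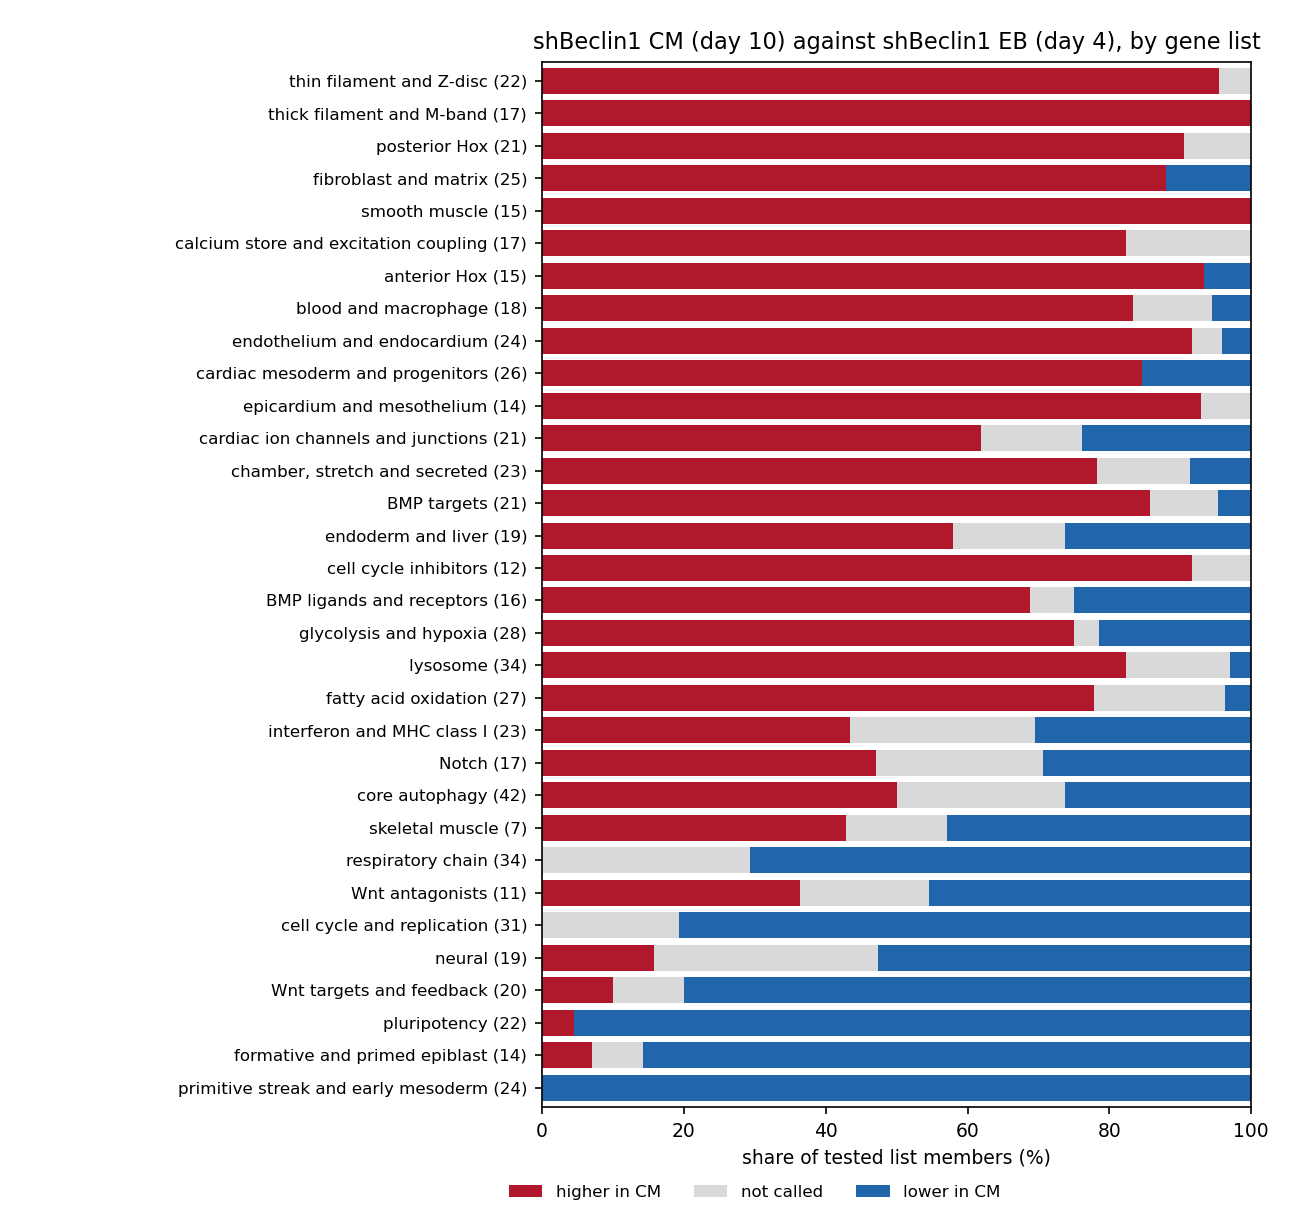
Share of the tested members of each gene list that were called higher, not called or called lower in shBeclin1 CM against shBeclin1 EB, as stacked bars in percent. The thick filament list is higher in 17 of 17 members and the streak list lower in 24 of 24, against 37.3% higher and 35.1% lower over all tested genes.

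To ask whether the course in the knockdown differed from that in shNT cells, the shNT CM libraries were set against the shNT EB libraries in the same fit, and the difference of the 2 changes was tested. The knockdown and shNT comparisons share no library, but the test of the difference uses both. In shNT, 13406 genes were called (70.0%), 7050 higher (36.8%) and 6356 lower (33.2%). The change itself differed for 4993 genes (26.1%), with a more positive change in shBeclin1 for 2338 (12.2%) and a more negative one for 2655 (13.9%). For genes near 0 in the shNT libraries the standard error of that difference is very large, so a gene without a call there is not shown to have changed alike.

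Sarcomere genes differed in the size of the change, and for some members in its direction. The thick filament list summed to 57.8 to 62.1 CPM in shNT CM, against 15.8 to 21.0 CPM in shNT EB. Of the 17 thick filament genes 7 rose and 1 fell in shNT (median log2 difference 1.40, against 6.78 in shBeclin1), and the difference was called as more positive in shBeclin1 for 9 and more negative for 0, or for 14 with only these 4 groups in the fit and by DESeq2. Of the 22 thin filament and Z-disc genes the difference was called more positive for 10 and more negative for 0. Myh6 had 877.3 and 742.3 CPM in shBeclin1 CM, against 3.59 and 3.72 CPM in shNT CM, and its change differed by 8.46 ± 1.11 on the log2 scale (adjusted p = 0.000461). Myl7 had 582.4 and 624.6 CPM in shBeclin1 CM, against 1.23 and 0.961 CPM in shNT CM (difference of the changes 7.89, adjusted p = 8.09e-05), and Actc1 had 1293 and 1237 CPM in shBeclin1 CM, against 18.1 and 22.2 CPM in shNT CM (6.06, adjusted p = 0.00105). All shBeclin1 CM libraries were above all shNT CM libraries for these genes. The difference was not called for Tnnt2 (adjusted p = 0.244) or Myh7 (adjusted p = 0.303), although Tnnt2 had 822.6 and 756.8 CPM in shBeclin1 CM, against 0.744 and 1.80 CPM in shNT CM; DESeq2 called both (adjusted p = 5.04e-13 and 3.53e-11).

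T showed the opposite pattern. It fell by 10.32 on the log2 scale in the knockdown, whereas the shNT CM libraries held 260.4 and 258.4 CPM, against 166.3 and 163.8 CPM in the shNT EB libraries, and the changes differed by -10.97 ± 0.16 (adjusted p = 5.32e-35). Of 24 streak genes the difference was called more negative in shBeclin1 for 14 and more positive for 3, and of 22 pluripotency genes for 18 and 2 (1 without shNT EB replicate 1 or shNT CM replicate 1). The streak list started higher in the knockdown, at 3367 to 3405 CPM in shBeclin1 EB, against 1471 to 1473 CPM in shNT EB. At day 10 it summed to 87.0 to 92.2 CPM in shBeclin1 CM and 335.9 to 341.3 CPM in shNT CM, where T made up most of the sum. A more negative change can thus come from a higher day 4 level as well as from a lower day 10 level. Sox2, a core pluripotency and neural factor, had 8.63 and 9.30 CPM in shBeclin1 CM, against 58.2 and 48.9 CPM in shNT CM. Gata4 fell in shNT, to 2.01 and 1.56 CPM in shNT CM, against 15.5 and 17.4 CPM in shNT EB, while it rose in the knockdown (difference of the changes 3.61, adjusted p = 2.5e-18). For Mef2c the difference was not called (adjusted p = 0.282), with 353.4 and 352.7 CPM in shBeclin1 CM, against 79.2 and 80.4 CPM in shNT CM.

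Among the other lists, smooth muscle had 11 members with a more positive and 1 with a more negative change in shBeclin1, and Acta2 had 1810 and 1892 CPM in shBeclin1 CM, against 107.5 and 129.8 CPM in shNT CM (difference 3.18, adjusted p = 1.22e-07). Endothelial genes gave 1 more positive and 10 more negative changes, with sums of 1646 to 1764 CPM in shBeclin1 CM and 1601 to 1650 CPM in shNT CM. At day 4 they summed to 310.4 to 315.2 CPM in shBeclin1 EB, against 114.1 to 118.8 CPM in shNT EB. The summed level thus differed at day 4, while the day 10 sums were close. In the same order, fibroblast and matrix genes gave 9 and 7. BMP targets gave 10 and 5, with Bambi at 149.9 and 159.0 CPM in shBeclin1 CM, against 16.2 and 16 CPM in shNT CM, and Wnt targets gave 4 and 8. Not all cardiac lists leaned as the sarcomere lists did. Of 26 cardiac progenitor genes 8 and 10 were called, and of 23 tested chamber and secreted genes 3 and 10. The chamber list summed to 246.2 to 248.7 CPM in shBeclin1 CM and 290.3 to 307.3 CPM in shNT CM. At day 4 it summed to 103.0 to 107.3 CPM in shBeclin1 EB and 34.1 to 34.3 CPM in shNT EB. The lists thus ranged from mostly positive to mostly negative differences, beside 12.2% and 13.9% of all genes. Glycolysis and hypoxia genes gave 21 and 1, with a median difference of the changes of 0.63 on the log2 scale. Core autophagy genes gave 12 and 1 of 42, with a median of only 0.13 and 2 called members at 2-fold or more. The endothelial count of 1 was 2 without shNT EB replicate 1 or shNT EB replicate 2, and the smooth muscle count of 1 was 2 without shBeclin1 EB replicate 2, shNT CM replicate 2 or shBeclin1 CM replicate 1. The glycolysis count of 1 was 2 without shBeclin1 EB replicate 1 or shNT CM replicate 1.

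**Figure D4:**
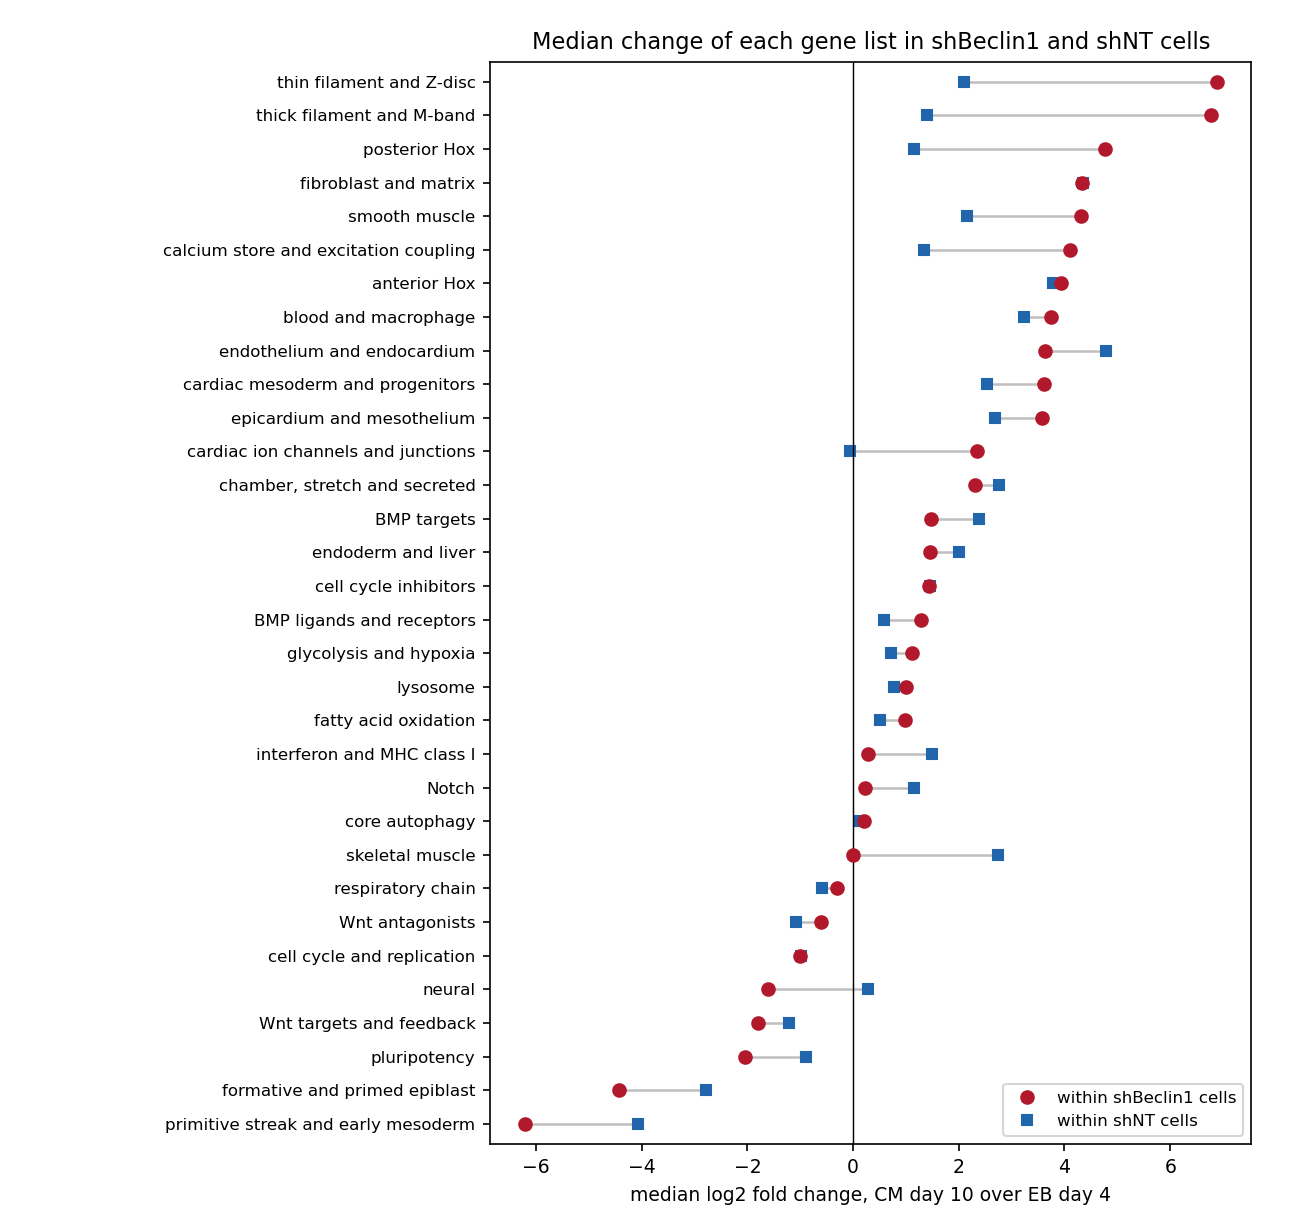
Median log2 difference between CM at day 10 and EB at day 4 for each gene list within shBeclin1 (circles) and within shNT (squares), with genes at 0 counts in one group set to their bound. For the thick filament list the medians are 6.78 in shBeclin1 and 1.40 in shNT, and for endothelium 3.63 and 4.78.

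The series also holds shBeclin1 CM cultures without GF at day 10, against which the day 10 state of the knockdown cells can be set. This comparison uses the same shBeclin1 CM libraries as the comparison with day 4. Of 19141 genes 7078 were called (37.0%), 3883 higher with GF (20.3%) and 3195 lower (16.7%). Scaled by total counts the share of called genes that were higher was 42.2%, against 54.9% here.

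Sarcomere levels were of the same order in both conditions. The thick filament list summed to 4119 to 4399 CPM in shBeclin1 CM and 2749 to 4828 CPM in shBeclin1 CM without GF, where the 2 libraries differed by much: Myh6 had 538.5 and 1263 CPM and Ttn 240.2 and 487.7 CPM in them. Among its 17 members 2 were called higher with GF and 3 lower. Without shBeclin1 CM without GF replicate 2 the count of higher genes was 8, and without replicate 1 of that group the count of lower genes was 7. Myh7 was one of those higher, with 994.2 and 879.6 CPM in shBeclin1 CM, against 127.8 and 270.9 CPM in shBeclin1 CM without GF (log2 difference 2.23 ± 0.28, adjusted p = 0.000218), a call lost with only the compared groups in the fit (adjusted p = 0.086). The 2 conditions did not overlap for Myh7. Tnni3, of the thin filament, was lower, with 14.3 and 12 CPM in shBeclin1 CM, against 40 and 69.2 CPM without GF (log2 difference -2.06 ± 0.20). Hcn4 was lower too, with 21.6 and 19.1 CPM in shBeclin1 CM, against 51.7 and 101.2 CPM without GF, and its call was lost in the same fit (adjusted p = 0.0976).

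Several lists lay mostly to one side. Of 34 tested lysosome genes 22 were higher with GF and 0 lower, and of 31 cell cycle genes 20 and 1. Of 22 pluripotency genes the counts were 11 and 1 and of 24 streak genes 10 and 1, while of 34 respiratory chain genes 0 were higher and 20 lower. The median log2 differences were small for the lysosome (0.28), cell cycle (0.26) and respiratory chain (-0.22) lists. In the last 2 of these lists 0 called members reached 2-fold. For the pluripotency and streak lists the medians were 0.82 and 0.93. The 20 lower respiratory chain genes were 7 without shBeclin1 CM replicate 1 and 8 without shBeclin1 CM without GF replicate 2, and the 20 higher cell cycle genes were 13 without shBeclin1 CM without GF replicate 2. The single lower gene became 0 for pluripotency without shBeclin1 CM replicate 2 and for the cell cycle without shBeclin1 CM without GF replicate 1. Of 21 tested posterior HOX genes 19 were higher with GF and 0 lower (median log2 difference 5.35, or 5.10 with genes at 0 counts set to their bound). Of the 24 listed, 9 had 0 counts without GF and could not have been found lower with GF. The filter limit given for these genes above holds here too. Hoxd9 had 33.4 and 31.3 CPM in shBeclin1 CM, against 0.228 and 0.455 CPM without GF (log2 difference 6.51 ± 0.27, adjusted p = 8.02e-20), and shBeclin1 EB had 0 counts. Cdx2 had 16 and 14.9 CPM in shBeclin1 CM, against 0.399 and 0.0505 CPM without GF (log2 difference 6.12 ± 0.35). Pitx1, a hindlimb homeobox factor with 10.3% of its exon bases shared, and Mmp9, a matrix protease, were the next largest rises (5.82 ± 0.34 and 5.47 ± 0.26). All 24 endothelial genes were higher with GF, and Cdh5 had 251.4 and 265.2 CPM in shBeclin1 CM, against 52.7 and 68.6 CPM without GF.

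Epicardial genes were lower with GF in 11 of 14 cases and higher in 2 (1 without shBeclin1 CM replicate 2 or shBeclin1 CM without GF replicate 1). Wt1, the zinc finger factor of the epicardium, had 7.92 and 7.20 CPM in shBeclin1 CM, against 100.8 and 88.6 CPM without GF (log2 difference -3.65 ± 0.13). Tbx18, a T-box factor of epicardium and sinus node with 20.6% of its exon bases shared, had 1.87 and 2.46 CPM in shBeclin1 CM, against 114.4 and 112.8 CPM without GF (log2 difference -5.70 ± 0.13, adjusted p = 4.54e-29). Both were lower in each library with GF. Shox2, a homeobox factor of the sinus node, had 0.515 and 0.176 CPM in shBeclin1 CM, against 16.1 and 32.5 CPM without GF, and Vsnl1, a neuronal calcium sensor also found in the sinus node of mice, had 0.0644 and 0.468 CPM in shBeclin1 CM, against 16 and 29.8 CPM without GF. Tbx5 had 3.22 and 2.93 CPM in shBeclin1 CM, against 18.1 and 33.9 CPM without GF.

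**Figure D5:**
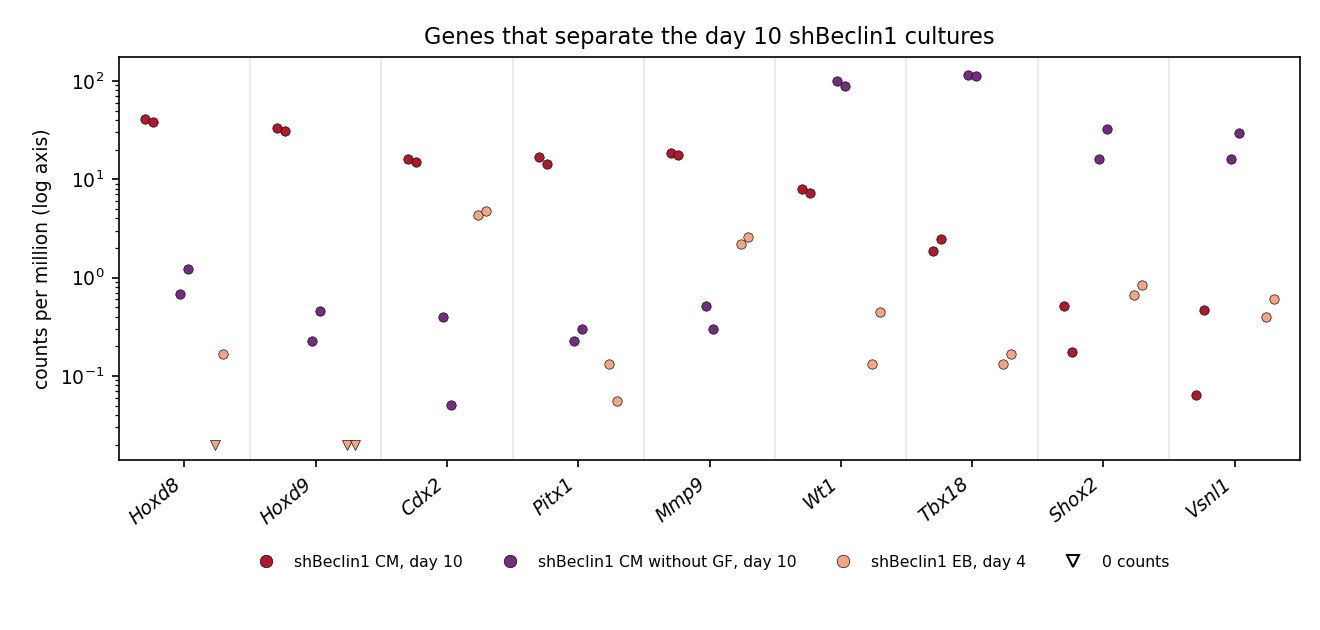
Levels in CPM (log axis) of 9 genes in single libraries of shBeclin1 CM, shBeclin1 CM without GF and shBeclin1 EB. Hoxd9 stands at 31.3 and 33.4 CPM with GF, against 0.228 and 0.455 CPM without, and Tbx18 at 1.87 and 2.46 CPM with GF, against 112.8 and 114.4 CPM without.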

How the data were processed

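RNA was sequenced as paired reads from 16 libraries in 8 groups of 2, and all of them shared one estimate of spread. Whole-number counts per annotation entry were deposited by the authors. Per the submitters' processing notes the tools were Trimmomatic 0.36, featureCounts in Subread 1.5.1 and SAMtools on mm10. The sources used here name no aligner, no annotation and no strand option. Per the labels' protocols, ribosomal RNA was depleted before a stranded library kit was used, while the molecule label reads polyA RNA, so the extent of non-polyadenylated RNA in the counts is not known. Genes with shared exons can exchange reads; the shares given are from GENCODE vM21, which held 93.8% of the symbols.

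Counts were fitted in edgeR 4.0.16 (R 4.3.3) with 1 mean per group over all 16 libraries, TMM scaling, filterByExpr (19141 entries kept, 34911 removed) and the robust quasi-likelihood test with 8 residual degrees of freedom, and the Benjamini-Hochberg adjustment at 0.05. The common biological coefficient of variation was 5.4%. The code was tested on simulated data. DESeq2 1.42.0, other scalings and filters, a replicate block, only the compared groups, and leaving out each library were run as alternatives. Replicates of every group differed by more than sampling noise. Intervals and floors cover counting error only.

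The compared groups and the 32 gene lists (683 genes) were chosen with earlier results of these data known. Genes named were Becn1, the 12 largest called rises and falls between the stages (at least 10 CPM, no overlap of libraries), per list the 4 most abundant and the 4 with the smallest adjusted p, any other member of a list of at most 30 genes that was counted whole, and the 6 and 4 largest in each direction for the difference of changes and for GF.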

Additional observations from a re-analysis of the deposited data

Results flagged for a closer look

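The change from day 4 to day 10 differed between shBeclin1 and shNT beyond the spread of the libraries for the 12 genes given here, the 6 largest in each direction among genes called for that difference with at least 10 CPM in a group, each by the edgeR quasi-likelihood test of the difference of the 2 changes with Benjamini-Hochberg adjustment. Values are fitted log2 differences of the changes, shBeclin1 minus shNT, and the genes were picked by these fitted values. Where a group held few or no counts, as shNT CM did for Myl2, neither the size of the difference nor its rank is well determined.

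On the muscle side, Myl2, the ventricular light chain, differed by 9.7 ± 1.1 (adjusted p = 4.68e-08), with 48.7 and 46.8 CPM in shBeclin1 CM, against 0.0438 and 0 CPM in shNT CM. Mylk3, the kinase of that light chain, differed by 8.86 ± 1.33 (adjusted p = 1.79e-06), Myh6 by 8.46 ± 1.11 (adjusted p = 0.000461) and Ttn by 8.03 ± 1.68 (adjusted p = 0.00737). Without shNT EB replicate 1 the Ttn difference was 7.51 and was not called (adjusted p = 0.0889). Fsd2, a gene of striated muscle, differed by 9.36 ± 2.8 (adjusted p = 0.0223), with 16 and 17.2 CPM in shBeclin1 CM, against 0.482 and 0.481 CPM in shNT CM. Its adjusted p was 0.119 without shNT EB replicate 1, 0.121 without shNT EB replicate 2 and 0.053 without shNT CM replicate 1. Hand2os1, the noncoding neighbour of Hand2, differed by 8.64 ± 1.11 (adjusted p = 1.27e-07), with 130 and 117.7 CPM in shBeclin1 CM, against 0.0876 and 0.18 CPM in shNT CM.

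In the other direction, T differed by -10.97 ± 0.16 (adjusted p = 5.32e-35). Car3, a carbonic anhydrase, differed by -9.4 ± 0.26 (adjusted p = 2.55e-24), with 0.901 and 0.936 CPM in shBeclin1 CM, against 209 and 223.4 CPM in shNT CM. The factor Six2, a homeobox gene of mesenchymal progenitors, differed by -8.84 ± 0.47 (adjusted p = 7.53e-10), with 0.451 and 0.234 CPM in shBeclin1 CM, against 40.5 and 32.9 CPM in shNT CM. Pou3f3 differed by -9.25 ± 1.11 (adjusted p = 5.4e-08), Tacr1, a tachykinin receptor, by -12.75 ± 3.45 (adjusted p = 0.00495) and Foxd2, a forkhead factor, by -8.62 ± 1.85 (adjusted p = 0.000421). The Tacr1 difference was -10.42 and not called without shBeclin1 EB replicate 1 (adjusted p = 1), and that of Foxd2 was -4.52 and not called without shBeclin1 EB replicate 2 (adjusted p = 1).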

How the results depend on the processing

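The count of genes that differed between shBeclin1 CM and shBeclin1 EB was 13851 and ranged over the alternatives from 12756, without shBeclin1 EB replicate 2, to 14006, with no filter on low counts; without a single library it lay between 12756 and 12894. It was 12987 by DESeq2, 13471 with only the compared groups and 13779 with total counts as the scaling, where the median log2 difference of all genes was 0.177 in place of 0.02. The same scaling gave 0.269 in place of 0.07 in shNT. Over 266 named genes and 2914 values of this comparison, 2884 kept direction and side of the threshold, 19 lost the call, 10 gained it and 1 turned: Cox4i1, called lower by a small margin, stood at 0.00 with total counts as the scaling. Becn1 was called there (log2 difference 0.18, adjusted p = 0.0446), as were Cdh2 (0.23), Lrrn4 (0.41) and Tal1 (0.33); Pkm, Ldha, Notch1, Smad4 and Gjc1 lost their calls. The cause was not tested.

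The number of genes whose change differed between shBeclin1 and shNT was 4993, with 3942 to 4470 when single libraries were left out, 4333 by DESeq2 and 6172 with only the compared groups. In the shNT comparison Mki67 turned to 0.15 with total counts as the scaling. In the comparison with cultures without GF the counts were 7078 and 5515 to 6275 without single libraries. There, without shBeclin1 CM without GF replicate 1, the values of Trim55, Tnnt2, Slc8a1, Tnni1, Fsd2 and Myh6 were -0.34, -0.31, -0.32, -0.21, -0.45 and -0.64; without replicate 2 of that group they were 0.66, 0.54, 0.68, 0.41, 0.57 and 0.59. These signs depend on which of the 2 libraries is kept.

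With the replicate number as a block, 13844 genes were called between the stages in the knockdown, 5070 for the difference and 7107 for GF. The deviations of same-numbered libraries from their group means correlated at -0.01, -0.02 and -0.01 in the 3 pairs of groups. No pairing by number was thus seen over all genes. A correlation over all genes cannot exclude a pairing that bears on only some of them. Under the strict filter 6 posterior HOX genes remained testable and called.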

Other observations

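Notch genes moved in both directions in the knockdown cells. Of 17 tested 8 rose and 5 fell between day 4 and day 10, beside 37.3% and 35.1% of all genes. The ligands of the early mesoderm fell, Dll1 to 1.22 and 1.58 CPM in shBeclin1 CM, against 110.8 and 106.1 CPM in shBeclin1 EB, and Dll3 to 0.708 and 0.468 CPM in shBeclin1 CM, against 60.8 and 55.3 CPM in shBeclin1 EB; 20.5% of the Dll1 exon bases are shared with another gene. The endothelial ligand Dll4 had 8.5 and 7.84 CPM in shBeclin1 CM, against 0.0664 and 0.111 CPM in shBeclin1 EB (ratio 89.8, 95% counting interval 30.4 to 438), and the endothelial receptor Notch4 had 19.9 and 22.3 CPM in shBeclin1 CM, against 3.45 and 3.28 CPM in shBeclin1 EB. Hes1, a general Notch target, fell to 30.6 and 30 CPM in shBeclin1 CM, against 89.7 and 91.6 CPM in shBeclin1 EB.

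Epithelial and endoderm genes divided as well, with 11 rises and 5 falls among 19 tested of 23 listed, beside 37.3% and 35.1% of all genes. Cdh1, the epithelial cadherin, fell to 26.8 and 19.5 CPM in shBeclin1 CM, against 475.6 and 481.3 CPM in shBeclin1 EB (log2 difference -4.37 ± 0.11, adjusted p = 9.62e-20 by the edgeR quasi-likelihood test with Benjamini-Hochberg adjustment). Foxa2, a factor of endoderm and node, fell to 0.386 and 0.0585 CPM in shBeclin1 CM, against 32.8 and 25.6 CPM in shBeclin1 EB. Sox17, which marks endoderm and also arterial endothelium, rose to 23.5 and 29.2 CPM in shBeclin1 CM, against 4.72 and 4.29 CPM in shBeclin1 EB, while Alb and Apoa4, genes of mature liver, had 0 counts in all 4 libraries. Of 19 tested neural genes 3 rose and 10 fell, and Stmn2, a neuronal growth-associated protein, fell to 5.6 and 7.31 CPM in shBeclin1 CM, against 44.3 and 48.8 CPM in shBeclin1 EB.

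Among 23 tested interferon and antigen presentation genes 10 rose and 7 fell, close to the 37.3% higher and 35.1% lower of all tested genes. The counts therefore say nothing particular about this list. B2m, the light chain of class I molecules, rose to 95.4 and 109.7 CPM in shBeclin1 CM, against 29.4 and 30.4 CPM in shBeclin1 EB (log2 difference 1.78 ± 0.08), and Ifitm1, a membrane protein also expressed in early mesoderm of mice, fell to 19.3 and 17.6 CPM in shBeclin1 CM, against 120.1 and 119.8 CPM in shBeclin1 EB.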
